A study of Sus scrofa with 2 samples.

Results

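The mitochondrial ribosomal protein genes of pig skin were taken as every gene whose symbol in the deposited gene lists begins with MRPL or MRPS followed by a digit. The rule found 67 of 31908 genes, of which 40 carry an MRPL and 27 an MRPS symbol. It used no measured value, but the family was chosen with earlier results of these data known. Cells were isolated from dorsal skin of healthy male farm pigs with an enzymatic whole skin dissociation kit, and droplet single-cell RNA sequencing of 3′ transcript ends was run on 1 library of fresh cells and 1 library of cryopreserved cells, which had been kept in liquid nitrogen after freezing with 10% DMSO and 90% FBS and were thawed before use. About 8000 cells went into each library, the study calls the animals young, and their genotype and exact age are not given. The extraction text of both samples describes freezing, so the fresh library is known as fresh from its title and its treatment label and from the study. It is not given whether 1 animal or several gave the cells of the libraries. With 1 library per condition no spread between samples can be estimated, so no test was run, every difference describes this pair of libraries, and all intervals are exact 95% intervals that cover counting error only.

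Mitochondria carry their own ribosome, which translates the proteins encoded in mitochondrial DNA, all of them subunits of the respiratory chain and ATP synthase. The mitoribosome takes its RNA from the mitochondrial genome, while its proteins are encoded in the nucleus, made in the cytosol and imported. MRPL symbols stand for proteins first assigned to the large subunit, which forms peptide bonds, and MRPS symbols for the small subunit, which reads the messenger RNA. Many of these proteins have a counterpart in the bacterial ribosome and many others are found in mitochondria alone. The symbols are not a perfect guide to position, since structures place MRPS30 and MRPS18A in the large subunit and MRPS36 is now regarded as a component of the 2-oxoglutarate dehydrogenase complex.

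Promoter sequences are shown first, because several members start close to a gene on the opposite strand. Whether such neighbours share a promoter was not tested. ETS-type motifs are also well known in promoters of nuclear genes for mitochondrial proteins. All 67 members matched a RefSeq gene of Sscrofa11.1, the build the authors mapped to. The start of a gene on the opposite strand, pointing away, lay within 1000 bases of the start of 20 members (29.851%), against 11.199% of 20644 protein-coding genes. MRPS12, whose product forms part of the decoding centre, lies next to SARS2, the mitochondrial seryl-tRNA synthetase gene, with 123 bases between their starts at chr6:47728395-47728517. RefSeq types its MRPS12 model as a long non-coding RNA. MRPS11 and MRPL46 are the 1 pair in which both genes are members, and 38 bases separate their starts at chr1:191321952-191321989. The intervals between the starts, on the plus strand and with a match to the SP1 motif GGGCGG in capitals on either strand, read
SARS2 to MRPS12: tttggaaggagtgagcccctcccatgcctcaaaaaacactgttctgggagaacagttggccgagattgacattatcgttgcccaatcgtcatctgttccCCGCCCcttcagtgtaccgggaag
MRPS11 to MRPL46: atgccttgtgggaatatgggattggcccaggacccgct

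In windows of 300 bases, from 250 before to 50 after the annotated start, the ETS motif CCGGAAG was found on either strand in 19 members (28.358%) and in 10.555% of protein-coding genes. The YY1 motif AAGATGGCG was found in 4 members (5.97%) and 1.424% of genes, the palindromic NRF1 motif in 6 (8.955%) and 6.079%, and the SP1 motif GGGCGG in 41 (61.194%) and 48.925%. A match describes the letters and is not a measured binding site. In 11 of the 67 members (16.418%) an ETS match lay before the start, a share that was not counted over all genes. Of these, 5 with at least 200 UMIs over both libraries, whose transcripts are described below, are shown. The strand is that of the gene, the capitals mark the match, and up to 20 bases are given on each side without passing the start.
MRPL17, chr9:3075954-3075985, plus strand: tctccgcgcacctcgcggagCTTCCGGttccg
MRPL27, chr12:26670168-26670195, minus strand: tttcaaccgccacgtaagacCCGGAAGt
MRPL38, chr12:5514372-5514418, plus strand: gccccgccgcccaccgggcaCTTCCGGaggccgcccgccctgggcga
MRPL43, chr14:112070227-112070269, minus strand: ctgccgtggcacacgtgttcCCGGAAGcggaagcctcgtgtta
MRPS34, chr3:40194041-40194077, plus strand: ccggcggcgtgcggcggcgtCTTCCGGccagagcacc
The matches began 12 bases before the start in MRPL17, 8 in MRPL27, 28 in MRPL38, 23 in MRPL43 and 17 in MRPS34. MRPS34 held further matches 56 and 98 bases before its start.

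The maxima of the study (4500 genes, 30000 UMIs and 10% mitochondrial UMIs per cell) left 2775 of 4379 fresh barcodes and 4223 of 4860 cryopreserved barcodes. A UMI is a molecular tag that lets copies of 1 transcript be counted once. The filtered cells held 32274985 fresh and 36687009 cryopreserved UMIs, with medians of 11017 and 7945 per cell, and 5 barcodes were kept in both libraries. Markers placed 22 of 23 clusters in 10 classes, and the remaining cluster, led by unnamed genes and HBB, stayed unnamed with 3 fresh and 21 cryopreserved cells. No member was among the genes used to cluster the cells.

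The members together gave 44593 fresh UMIs (0.138% of the library) and 61676 cryopreserved UMIs (0.168%), or a median of 13 and 11 UMIs per cell. Since 1 UMI stands for 1 captured 3′ end whatever the transcript length, levels are given as CPM, the UMIs of a gene per 1000000 UMIs. Levels of a whole library are scaled with the TMM factors of edgeR, and those of a single class or cluster are unscaled. At least 200 UMIs over both libraries were found for 62 members, and their mean CPM ran from 5.55 for MRPL54 to 85.9 for MRPL17. The other 5 had 29 fresh and 59 cryopreserved UMIs for MRPL10, 15 and 27 for MRPL34, 2 and 3 for MRPL49, 6 and 7 for MRPS18B, and 77 and 71 for MRPS16. No member was at 0. All 67 members were thus detected, at uneven levels.

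The 5 members with the highest mean CPM were MRPL17, MRPL57, MRPL12, MRPL38 and MRPS26. MRPL17, a large subunit protein with a bacterial counterpart, had 72.3 CPM in fresh and 99.5 in cryopreserved cells. MRPL57, a mitochondria-specific large subunit protein, had 63.6 and 80.3 CPM. MRPL12, the protein of the stalk that contacts translation factors, had 47.9 and 61.1 CPM. These 3 large subunit members were all higher in the cryopreserved library. MRPL38, also specific to mitochondria, had 47.7 and 60.9 CPM, and the small subunit member MRPS26 had 42.7 and 62.8 CPM. Each of the 5 was higher in the cryopreserved library, with log2 ratios from 0.34 (interval 0.25 to 0.42) for MRPL57 to 0.55 (0.46 to 0.65) for MRPS26.

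Transcripts of the mitoribosome made up a larger part of the cryopreserved than of the fresh library. Summed over the 67 members, the level was 1363 CPM in the fresh and 1704 CPM in the cryopreserved library, a ratio of 1.25 (interval 1.23 to 1.27). The median log2 ratio of the 62 members with at least 200 UMIs was 0.30, with an interquartile range of 0.12 to 0.38, against a median of 0.03 over all 11692 genes with as many UMIs. The log2 ratio was above 0 for 57 of 62 members (91.9%), and for 53.5% of all genes. The counting interval lay above 0 for 42 members, where 35.4% of all genes had such an interval, and below 0 for 0 members, where 29.8% of all genes did. The shift was broad and small, and the 62 members lay between -0.10 and 0.955. A log2 ratio of at least 0.5 was reached by 10 members (16.1%), namely MRPL20, MRPL41, MRPS2, MRPL40, MRPL43, MRPL50, MRPL28, MRPS26, MRPL44 and MRPL24, against 8.29% of all genes. None was at -0.5 or below, against 4.86% of all genes, and none passed 1 in either direction, against 0.753% above and 0.316% below. MRPL24 at 0.54 was the last member inside the limit of 0.5 and MRPS34 at 0.495 the first outside it.

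**Figure D1:**
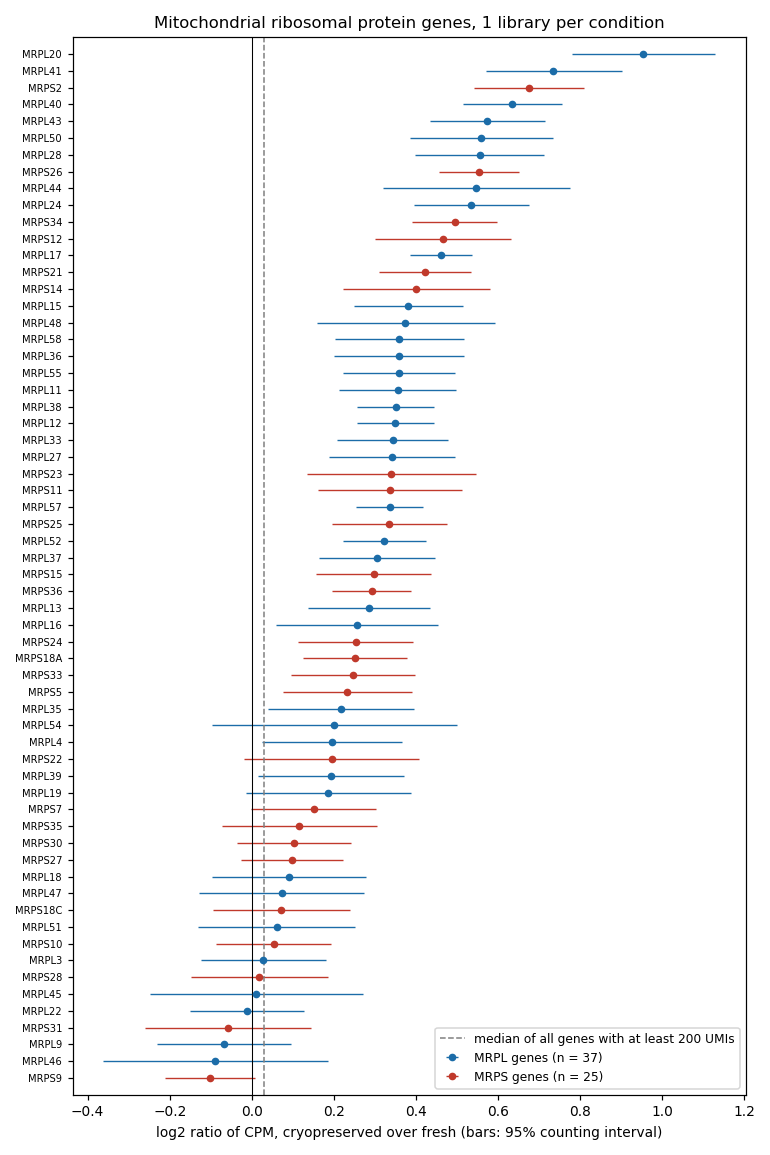
Log2 ratio of CPM, cryopreserved over fresh, for the 62 members with at least 200 UMIs (x axis, log2 scale), 1 point per gene with its 95% counting interval as a bar, MRPL genes in blue and MRPS genes in red. The dashed line is the median of all 11692 genes with at least 200 UMIs (0.03), and 57 of the 62 points lie to the right of 0.

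The barcodes that the maxima left out bear on the size of this difference. With all barcodes of both matrices, the summed ratio was 1.165, the median log2 ratio 0.18, and 5 members reached 0.5 in place of 10. Barcodes within the mitochondrial limit but above the gene or UMI maximum, 600 fresh and 191 cryopreserved, had a summed unscaled level of 1771 and 2322 CPM, which was 1.28 and 1.38 times that of the filtered cells. Barcodes above the mitochondrial limit, 1004 fresh and 446 cryopreserved, had 984 CPM (interval 943 to 1026) and 1219 CPM (1149 to 1292). These levels were 0.712 and 0.725 times those of the filtered cells. The barcodes were picked for a high share of mitochondrial UMIs, which count in the CPM, so a lower member share is partly built in. A level relative to the other UMIs was not computed. In each of these 3 sets of barcodes the cryopreserved library was the higher one. With the class shares of the fresh library applied to both, the summed ratio was 1.24. Cells of the fresh library were deeper, and with each cell thinned to 1000 UMIs fresh cells had a mean of 1.34 and cryopreserved cells a mean of 1.58 member UMIs.

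Among the 62 members with at least 200 UMIs, the 5 largest log2 ratios belonged to MRPL20, MRPL41, MRPS2, MRPL40 and MRPL43. MRPL20 (chr6:63670750-63675834, minus strand, 4 exons), a large subunit protein with a bacterial counterpart, had 398 fresh and 854 cryopreserved UMIs, or 12.2 and 23.6 CPM, a log2 ratio of 0.955 (interval 0.78 to 1.13). It was higher in the cryopreserved library in 10 of 10 cell classes. In fibroblast-like cells MRPL20 had 187 and 362 UMIs (11.9 and 22.0 CPM), and in differentiated keratinocyte-like cells 57 and 155 UMIs (19.4 and 36.6 CPM). MRPL41, a mitochondria-specific large subunit protein on an unplaced scaffold, had 465 and 857 UMIs, or 14.2 and 23.7 CPM (log2 ratio 0.74, interval 0.57 to 0.90). MRPS2, a small subunit protein with a bacterial counterpart and also on an unplaced scaffold, had 716 and 1266 UMIs, or 21.9 and 35.0 CPM (0.68, 0.54 to 0.81). Both intervals lay above 0.5, and MRPS2 was higher in all 10 classes and MRPL41 in 9. MRPL40 (chr14:51102900-51105769) had 881 and 1514 UMIs, or 26.9 and 41.8 CPM (0.63, 0.51 to 0.76). MRPL43 (chr14:112068678-112070226), whose promoter match is printed above, had 676 and 1114 UMIs, or 20.7 and 30.8 CPM (0.57, 0.44 to 0.71). Both encode large subunit proteins that bacteria lack, and the largest differences thus came from both subunits and from both old and mitochondria-specific proteins.

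Among the same 62 members, the 5 lowest log2 ratios were those of MRPS9, MRPL46, MRPL9, MRPS31 and MRPL22, and the counting interval of each included 0. MRPS9 (chr3:49626796-49681437), a small subunit protein with a bacterial counterpart, had 1305 fresh and 1346 cryopreserved UMIs, or 39.9 and 37.2 CPM (log2 ratio -0.10, interval -0.21 to 0.01). MRPL46 had 220 and 229 UMIs, or 6.73 and 6.33 CPM (-0.09, -0.36 to 0.19). Its head-to-head neighbour MRPS11, whose start lies 38 bases away, had 463 and 647 UMIs, or 14.2 and 17.9 CPM (0.34, 0.16 to 0.51). The intervals of these neighbours overlapped slightly. MRPL9 had 602 and 636 UMIs (-0.07, -0.23 to 0.10), MRPS31 had 395 and 420 UMIs (-0.06, -0.26 to 0.14), and MRPL22, which lines the exit tunnel for the new peptide, had 813 and 893 UMIs (-0.01, -0.15 to 0.13). None of the 62 was therefore lower in the cryopreserved library by more than its counting error.

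MRPS12 (chr6:47728518-47732042, plus strand, 4 exons) had 496 fresh and 758 cryopreserved UMIs, or 15.2 and 20.9 CPM, a log2 ratio of 0.47 (interval 0.30 to 0.63). With all barcodes the log2 ratio was 0.23. With both libraries summed, MRPS12 was highest in differentiated keratinocyte-like cells, with 26.5 CPM in fresh and 25.5 in cryopreserved cells, and lowest in endothelial-like cells, with 5.10 and 8.84 CPM. In fibroblast-like cells, the largest class, it had 212 and 328 UMIs, or 13.4 and 19.95 CPM. Myeloid-like cells had 25.3 and 25.4 CPM, and epidermal stem-like cells 19.0 and 21.7 CPM. In the cryopreserved library Langerhans or other dendritic-like cells (26.2 CPM from 50 UMIs) and mast-like cells (25.8 CPM from 7 UMIs) were slightly above the differentiated keratinocyte-like cells. The gene was higher in the cryopreserved library in 8 of 10 classes, and the differentiated keratinocyte-like cells were 1 of the 2 exceptions, with few UMIs (78 and 108) behind the values.

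The neighbours of MRPS12 on the opposite strand behaved unlike any member. SARS2 (chr6:47717363-47728394) had 1 fresh and 704 cryopreserved UMIs, and CCER2 (chr6:47712760-47717225) had 3 and 806. Of these, 703 SARS2 and 794 CCER2 UMIs came from 1 cryopreserved epidermal stem-like cell with 7902 UMIs. The same cell held 0 MRPS12 UMIs and 17 UMIs of all members. Outside this cell SARS2 had 1 and CCER2 12 cryopreserved UMIs, while all 758 MRPS12 UMIs came from other cells. In this cell the adjacent minus-strand genes were thus abundant, and MRPS12 on the other side of the 123-base interval was not detected. Since MRPS12 was detected in only 15.3% of cryopreserved cells, 0 UMIs in a single cell is the usual result. Among members, MRPS33 had the most UMIs in 1 cell, 16 in a cryopreserved epidermal stem-like cell with 23562 UMIs, where the next cell had 9. MRPL49, with 5 UMIs in all, was the 1 member with 10% or more of its UMIs in a single cell.

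Over the whole libraries, large subunit symbols showed a slightly larger difference than small subunit symbols. The MRPL genes summed to 788 fresh and 1008 cryopreserved CPM, a ratio of 1.28 (interval 1.26 to 1.30), and the MRPS genes to 575 and 696 CPM, a ratio of 1.21 (1.19 to 1.23). The median log2 ratio was 0.34 over 37 MRPL and 0.25 over 25 MRPS genes, with 34 and 23 above 0 (91.9% and 92.0%, against 53.5% of all genes). MRPL UMIs outnumbered MRPS UMIs by 1.37 (interval 1.35 to 1.40) in the fresh and 1.45 (1.43 to 1.47) in the cryopreserved library. When the mitoribosome genes that carry other symbols were added, the ratios were 1.23 and 1.29, so the order of the libraries was the same. None of these ratios includes MRPS6, MRPL30 and MRPL2, which the files list by gene ID alone. MRPS6 had 3268 fresh and 4194 cryopreserved UMIs, more than any member, MRPL30 had 966 and 1258, and MRPL2 had 342 and 500. The size of the MRPL excess thus holds for the members only, and a ratio with these genes was not computed. By class, MRPL over MRPS of the members fell from 1.795 fresh to 1.262 cryopreserved in mast-like cells. It was slightly lower in T or NK-like (1.202 to 1.145) and lymphatic-like cells (1.44 to 1.429), and higher in the other named classes. No intervals were computed for these class ratios, so small changes cannot be told from counting error. The lymphatic-like values rest on 810 fresh and 821 cryopreserved member UMIs, and the mast-like values on 313 and 475. Members with a bacterial counterpart had a median log2 ratio of 0.29 (35 genes) and those without one 0.33 (26 genes). Their summed ratios were 1.23 (interval 1.21 to 1.25) and 1.28 (1.26 to 1.30), and 4 and 6 of them (11.4% and 23.1%) reached 0.5, against 8.29% of all genes.

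Across cell classes, the keratinocyte classes had the highest level of mitoribosomal transcripts and the endothelial-like cells the lowest. Here CPM is relative to the UMIs of the class. Differentiated keratinocyte-like cells had 2059 CPM (interval 2008 to 2112) in the fresh and 2301 CPM (2255 to 2347) in the cryopreserved library. Epidermal stem-like cells, the basal keratinocytes, had 1969 (1929 to 2009) and 2214 CPM (2178 to 2251). Endothelial-like cells had 809 (765 to 854) and 958 CPM (905 to 1014). The keratinocyte classes stood apart from the other 8 in both libraries. Myeloid-like cells had 1473 (1412 to 1535) and 1692 CPM (1639 to 1747), and mast-like cells 1216 (1085 to 1359) and 1752 CPM (1598 to 1917). T or NK-like cells had 1253 (1186 to 1322) and 1513 CPM (1448 to 1580). Fibroblast-like cells had 1212 (1194 to 1229) and 1473 CPM (1454 to 1491), and SMC-like cells, which include pericytes, 1215 (1167 to 1266) and 1401 CPM (1349 to 1455). In the fresh library the intervals of the mast-like, T or NK-like, fibroblast-like and SMC-like classes overlapped, so their order is not set by these counts. Lymphatic-like cells had 1001 (933 to 1072) and 1371 CPM (1279 to 1468), and Langerhans or other dendritic-like cells 1053 (1003 to 1104) and 1269 CPM (1219 to 1320). By the mean of both libraries, the highest class was 2.47 times the lowest (interval 2.37 to 2.58). Fresh medians per cell ranged from 2750.5 UMIs in mast-like to 17677 in differentiated keratinocyte-like cells. With cells thinned to 1000 UMIs the ratio of the highest to the lowest class was 2.35.

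**Figure D2:**
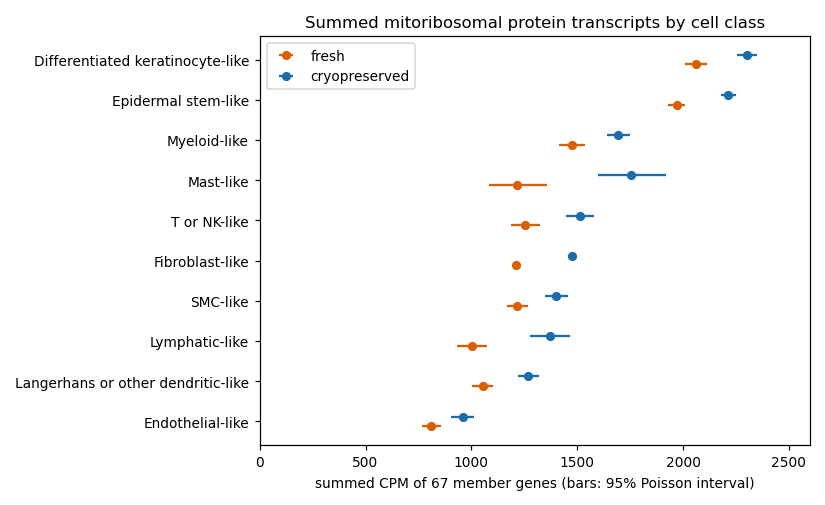
Summed CPM of the 67 members (x axis, linear) in each of the 10 cell classes (y axis) in the fresh (orange) and the cryopreserved (blue) library, with exact 95% Poisson intervals as bars. The keratinocyte classes are highest and endothelial-like cells lowest in both libraries, and in every class the cryopreserved point lies to the right.

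The cryopreserved library was higher within 10 of 10 classes, by log2 ratios of the summed members, scaled within the class, from 0.10 to 0.51. The smallest was that of differentiated keratinocyte-like cells at 0.10 (interval 0.05 to 0.14), followed by epidermal stem-like cells at 0.18 (0.14 to 0.22). Fibroblast-like cells had 0.35 (0.32 to 0.38), lymphatic-like cells 0.43 (0.29 to 0.57) and mast-like cells 0.51 (0.30 to 0.72). The keratinocyte classes, which had the highest levels, thus had the smallest differences, and their intervals lay below that of the fibroblast-like cells. The other classes were at 0.31 (0.23 to 0.39) in myeloid-like, 0.33 (0.23 to 0.43) in T or NK-like, 0.24 (0.16 to 0.32) in SMC-like, 0.25 (0.16 to 0.34) in Langerhans or other dendritic-like and 0.23 (0.12 to 0.35) in endothelial-like cells. The interval of the epidermal stem-like cells overlapped those of the SMC-like, Langerhans or other dendritic-like and endothelial-like cells. That of the differentiated keratinocyte-like cells overlapped the endothelial-like one, the class with the lowest level. Among members with at least 200 UMIs in the class, 51 of 59 were above 0 in fibroblast-like cells, against 53% of all genes there. In epidermal stem-like cells 41 of 52 were above 0, against 50.4%, and in differentiated keratinocyte-like cells 24 of 37, against 46.6%. In the other classes few members had as many UMIs. There 6 of 6 were above 0 in myeloid-like cells (51.7% of all genes), 4 of 5 in SMC-like cells (45.1%), 2 of 2 in Langerhans or other dendritic-like cells (39.2%), 1 of 1 in endothelial-like cells (38.3%) and 0 of 1 in T or NK-like cells (46.6%). Counted over classes, 8 of the 62 members were higher in the cryopreserved library in all 10 classes, as were 4.17% of all genes with at least 200 UMIs, and 45 in at least 6, as were 41.4% of these genes. The 2 members least often higher were so in 3.

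Single members had their own class patterns around this family trend. Of the 48 members with at least 1000 UMIs, 21 were highest in differentiated keratinocyte-like and 11 in epidermal stem-like cells, and 23 were lowest in endothelial-like cells. Of all 7584 genes with as many UMIs, 12% were highest in differentiated keratinocyte-like and 10.3% in epidermal stem-like cells, and 14.6% were lowest in endothelial-like cells. The ratios that follow set each gene's highest class against its lowest, which were picked from the same values. MRPL13, a large subunit protein with a bacterial counterpart, varied most, with 558 UMIs (49.8 CPM) in epidermal stem-like and 14 UMIs (4.98 CPM) in endothelial-like cells, a ratio of 10.0 (interval 5.92 to 18.4). Its fresh and cryopreserved values were 43.4 and 54.6 CPM in the former and 3.82 and 6.43 CPM in the latter, so the libraries showed the same contrast. MRPS28 had 34.7 CPM in differentiated keratinocyte-like cells and 2 UMIs (3.78 CPM) in mast-like cells, a ratio of 9.16 that 2 UMIs leave wide (2.51 to 76.0). MRPL27, which lies near the peptidyl transferase centre, had 243 UMIs (33.8 CPM) in differentiated keratinocyte-like and 11 UMIs (4.55 CPM) in T or NK-like cells, a ratio of 7.44 (4.09 to 15.1). These members were most uneven, while the next were spread most evenly.

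MRPL50 had 25.8 CPM in differentiated keratinocyte-like and 11.2 CPM in fibroblast-like cells, a ratio of 2.29 (interval 1.91 to 2.74). MRPL12 had 94.8 CPM in epidermal stem-like and 37.0 CPM in endothelial-like cells, a ratio of 2.56 (2.09 to 3.17). MRPL38 went against the family trend, with 104 CPM in SMC-like and 43.0 CPM in T or NK-like cells, a ratio of 2.41 (1.94 to 3.02). Its level in endothelial-like cells was 65 CPM in fresh and 91.7 in cryopreserved cells, above the 39.7 and 54.0 CPM of differentiated keratinocyte-like cells, so MRPL38 reversed the order that the summed family showed. MRPS9, the lowest of the 62 members by log2 ratio, was likewise highest in SMC-like cells, with 76.4 fresh and 73.6 cryopreserved CPM, against 16.1 and 10.48 CPM in Langerhans or other dendritic-like cells. In all, 4 of the 48 members were highest in SMC-like cells, as were 10.6% of all genes with at least 1000 UMIs.

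**Figure D3:**
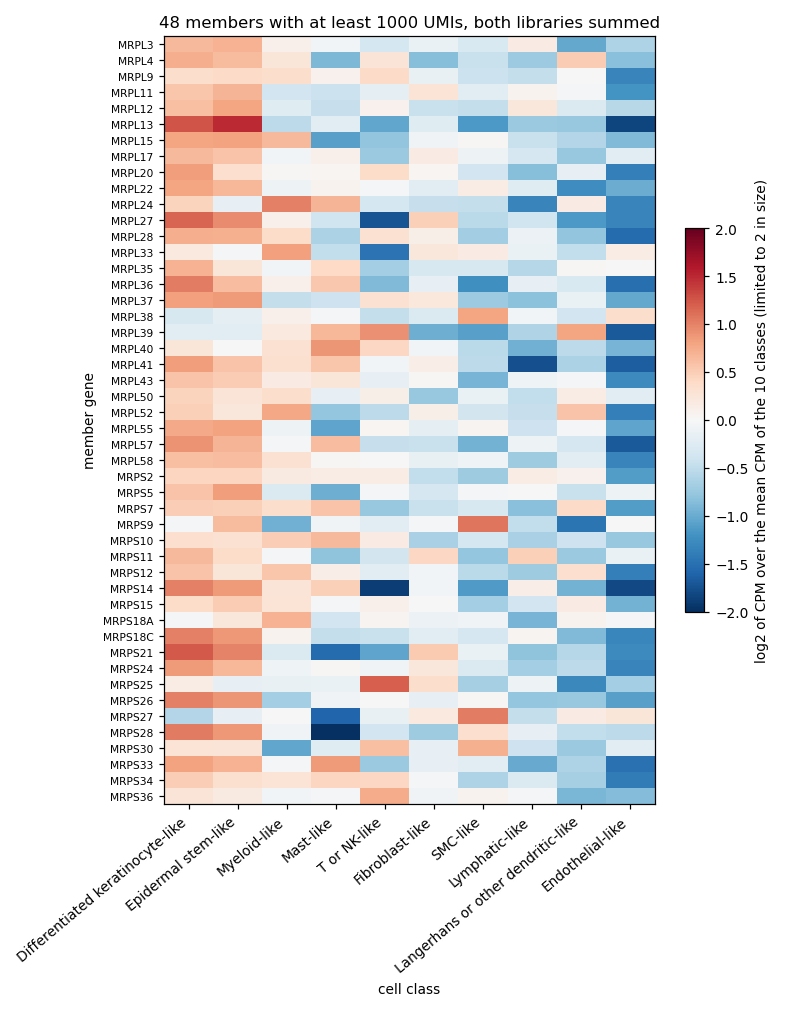
Level of the 48 members with at least 1000 UMIs (rows) in 10 cell classes (columns), both libraries summed, as log2 of the class CPM over the gene's mean over the classes (colour, red above and blue below the mean, limited to 2 in size). Most rows are red in the keratinocyte columns at the left and blue in the endothelial-like column at the right, and MRPL38, MRPS9 and MRPS27 are reddest in SMC-like cells.

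By summed unscaled CPM, dividing epidermal stem-like and fibroblast-like cells carried more mitoribosomal transcripts than the rest of their class. Clusters with at least 6 of 8 proliferation markers such as MKI67 and TOP2A were counted as dividing, and the 3 so counted each had 7. The fibroblast-like one was named by a second rule, set after the first had left it unnamed. Dividing epidermal stem-like cells, 23 fresh and 73 cryopreserved, had 2207 CPM against 1952 in the rest of the class in the fresh library, a ratio of 1.13 (interval 1.04 to 1.22). In the cryopreserved library they had 2542 against 2159 CPM, a ratio of 1.18 (1.13 to 1.23). Dividing fibroblast-like cells, 18 and 16 cells, had 1578 against 1206 CPM in the fresh library (1.31, 1.17 to 1.45) and 2350 against 1464 CPM in the cryopreserved library (1.61, 1.44 to 1.78). Both libraries gave the same direction in both classes. Among members with at least 200 UMIs in the class, 8 of 12 fresh and 20 of 27 cryopreserved were higher in dividing epidermal stem-like cells. Of all genes 44.2% and 46.8% were. In dividing fibroblast-like cells 25 of 42 and 33 of 47 members were higher, against 53.8% and 50.6% of all genes, a small margin in the fresh library. Of the dividing fibroblast-like cells, 35.3% were among the 6% of cells with the highest Scrublet doublet scores, and without all such cells the ratios were 1.43 (1.25 to 1.63, 10 cells) and 1.72 (1.52 to 1.93, 12 cells), so the difference was as large without them. Dividing T or NK-like cells, 8 and 13 cells, had 1137 against 1267 CPM (0.897, 0.743 to 1.08) and 1590 against 1505 CPM (1.06, 0.910 to 1.22), and no difference was detectable at this depth. A further T or NK-like cluster, 65 and 97 cells, had 5 of the 8 markers and was counted in the rest of this class. Its level was 1.02 (0.913 to 1.14) and 1.01 times (0.924 to 1.11) that of the other T or NK-like cells.

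Non-dividing clusters differed as well. The myeloid-like cluster with MARCO and CD300C held 15 fresh and 44 cryopreserved cells. In these libraries it had 1.198 (interval 1.05 to 1.36) and 1.25 times (1.15 to 1.35) the level of the other myeloid-like cells. A fibroblast-like cluster led by COCH and TNN, 58 and 72 cells, had 1.2 (1.12 to 1.29) and 1.16 times (1.09 to 1.23) the rest of its class. The epidermal stem-like cluster with PTHLH and SOX9, 102 and 236 cells, was lower, at 0.912 (0.870 to 0.955) and 0.866 times (0.835 to 0.897). Among members with at least 200 UMIs in the class, 29 of 42 fresh and 30 of 47 cryopreserved were higher in the COCH cluster. Of all genes 58.9% and 62.2% were, so most genes were higher there as well, and the margin was small in the cryopreserved library. In the PTHLH cluster 3 of 12 and 7 of 27 members were higher, against 52.2% and 47.2% of all genes. No member had as many UMIs in myeloid-like cells of either library. Of the cells, 20.3% in the MARCO cluster, 28.5% in the COCH cluster and 4.73% in the PTHLH cluster had Scrublet scores in the top 6%. Without such cells the ratios in the MARCO cluster were 1.28 (1.101 to 1.485, 9 cells) and 1.32 (1.211 to 1.443, 38 cells). In the COCH cluster they were 1.26 (1.155 to 1.373) and 1.18 (1.099 to 1.267). In the PTHLH cluster they were 0.893 (0.8505 to 0.9366) and 0.859 (0.8281 to 0.8913). These clusters were singled out after their values were seen.

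**Figure D4:**
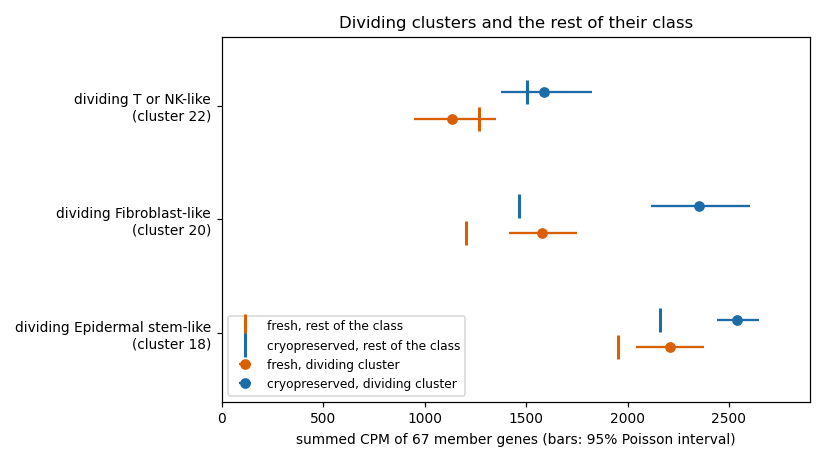
Summed CPM of the 67 members (x axis, linear) in the 3 dividing clusters (points, with exact 95% Poisson intervals) and in the rest of the same class (vertical ticks) in the fresh (orange) and cryopreserved (blue) library. The points lie to the right of their ticks in epidermal stem-like and fibroblast-like cells, while in T or NK-like cells the bars cover the ticks.

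The log2 ratio moved with the base composition of the transcripts. Across the 62 members, Pearson's r between the log2 ratio and the GC content of the longest RefSeq transcript was 0.47 and Spearman's rho 0.49, and across the 9644 of 11692 genes with a RefSeq transcript they were 0.36 and 0.39. These correlations run across genes of the same pair of libraries, which are not replicates. For transcript length on a log10 scale r was -0.32 over members and -0.38 over all genes, and rho was -0.36 and -0.43. Members had shorter transcripts, with a median log10 length of 3.127 against 3.568 over all genes. Their median GC content was 52.01%, against 50.4% over all genes. The genes were then split into 3 equal groups by GC content. In the low group the median log2 ratio was 0.19 over 18 members and -0.10 over all genes, in the middle group 0.26 over 23 members and -0.0048 over all genes, and in the high group 0.36 over 21 members and 0.21 over all genes. The median of the members was thus above that of all genes in each group, by less in the high group. No such grouping was made by transcript length. The parts of base composition and of transcript length in the difference between the libraries were not tested.

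**Figure D5:**
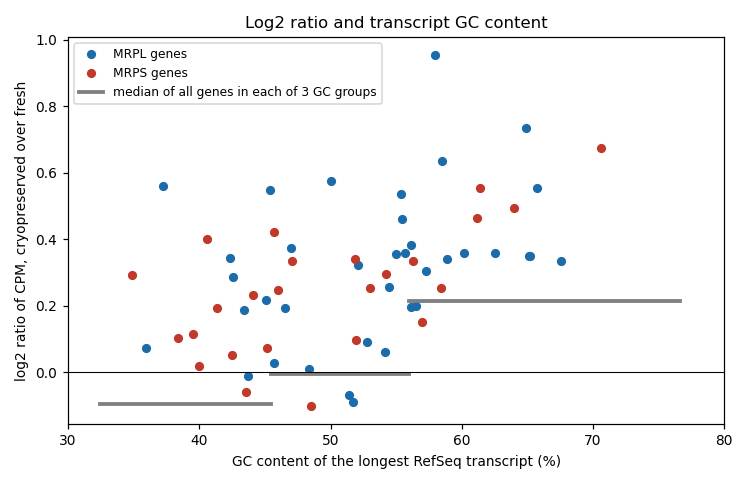
Log2 ratio of CPM, cryopreserved over fresh (y axis), against GC content in percent of the longest RefSeq transcript (x axis) for the 62 members, MRPL in blue and MRPS in red. Grey lines give the median of all genes in 3 equal groups by GC content (-0.10, -0.0048 and 0.21), and most members lie above the line of their group.

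Other genes of mitochondrial translation were taken from lists and are counted against the 53.5% of all genes above 0. The list of mitoribosome genes with another symbol was above 0 in 5 of 5 cases with at least 200 UMIs, with a median of 0.36. GADD45GIP1 had 325 fresh and 498 cryopreserved UMIs (log2 ratio 0.47), CHCHD1 1199 and 1818 (0.45) and PTCD3 1220 and 1563 (0.21). The other genes of the 5 were MPV17L2 (0.36) and OXA1L (0.07), which are not themselves mitoribosomal proteins. DAP3 was at 0 UMIs in both libraries. Mitoribosome assembly factors had a median of 0.17 with 14 of 19 above 0, from NSUN4 at -0.32 to 0.73 for ERAL1, the chaperone of the small subunit RNA. Translation factors had a median of -0.01 with 5 of 11 above 0. The elongation factor TUFM was at 0.62 with 819 and 1389 UMIs, whereas the recycling factor MRRF was at -0.39 with 347 and 293 UMIs and the elongation factor GFM1 at -0.21 with 905 and 864. The translation factors thus lay near the median of all genes as a list, unlike the members. Mitochondrial aminoacyl-tRNA synthetases had a median of 0.11 with 9 of 12 above 0, and SARS2 among them rests on the single cell described above.

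The transcripts that the mitoribosome translates come from the same 13 genes on which the limit of 10% mitochondrial UMIs acts, so their sum depends on that filter. In the filtered cells the 13 proteins encoded in mitochondrial DNA gave 1147567 fresh and 1251701 cryopreserved UMIs, or 35090 and 34580 CPM, a ratio of 0.986 (interval 0.983 to 0.988). Without the mitochondrial limit the ratio was 0.745 (0.743 to 0.746) and with all barcodes 0.830 (0.829 to 0.832), where the summed members had 1.265 and 1.165. Single genes of this group went apart, from ND3 with 27445 and 6027 UMIs (log2 ratio -2.33) and COX3 with 218281 and 137519 (-0.81) to ND4L with 3990 and 8263 (0.90). Their median log2 ratio was 0.04, with 8 of 12 above 0.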

How the data were processed

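Each library was deposited as raw UMI counts per gene and barcode, which the authors made with Cell Ranger 4.0.0 (STAR 2.5.1b) on Sscrofa11.1 with the Ensembl annotation. Cells over the maxima of the study were removed, using the 13 mitochondrial protein genes. Counts were summed per library, class or cluster. Library levels and ratios between the libraries, also those within a class, were scaled with edgeR 4.0.16 TMM factors. Levels of classes and clusters, and ratios between them, are unscaled shares of their UMIs, except where TMM factors across classes are named. Ratios carry exact conditional binomial intervals and levels exact Poisson intervals at 95%. The ratio intervals were run on simulated Poisson counts, which is the model they assume. That run checks the calculation and does not cover spread between cells. Libraries were integrated and clustered with Seurat 5.3.0 (2000 features, 30 dimensions, resolution 0.8). A cluster was named from at least 3 markers in at least 10% of its cells and at 2 times the rest or more. This left 4 clusters (390 fresh and 548 cryopreserved cells) unnamed, and a second rule, set after seeing this, compared them with the median of clusters and named 3 as fibroblast-like. Scrublet (Scanpy 1.11.5) called too few doublets to be used, so its scores served in an alternative. Promoters, positions and GC content came from RefSeq. Members and lists were chosen with earlier results of these data known. Genes were named by rule, which took MRPS12, the 5 highest and 5 lowest log2 ratios, the 5 highest mean CPM, the 3 largest and 3 smallest class ratios, and members with 10% or more of their UMIs in 1 cell. MRPS11, MRPS27, MRPS33 and MRPS34, and the clusters and list genes singled out, were chosen after their values were seen. MRPS6, MRPL30 and MRPL2 are listed in the files by gene ID alone and were not counted as members.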

Additional observations from a re-analysis of the deposited data

How the results depend on the processing

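No paired analysis was possible because each condition has 1 library and no result comes from a test. For the same reason no replicate could be left out. Of 59 values recomputed under other settings, 49 stayed within set limits and 10 moved outside them, and none changed direction. The limits were the counting interval for ratios of sums and MRPS12, an interval from the ranked member values for the member median, the wider range over the 10 classes for the median log2 ratio within classes, and 1.5 times for counts. With all barcodes, the summed ratio of 1.25 became 1.165, the median log2 ratio 0.1841, the number of members at 0.5 or more 5, and the log2 ratio of MRPS12 0.2346. The summed ratio was 1.217 with total UMIs, 1.265 without the mitochondrial limit and, chosen after seeing the data, 1.224 relative to the median of all genes. The ratio of the highest to the lowest class was 2.352 with thinned cells, and MRPL over MRPS was 1.23 fresh and 1.294 cryopreserved with the mitoribosome genes of other symbols added. The causes were not tested. Keratinocyte classes led and endothelial-like cells were lowest under each clustering and scaling run, while the order of the middle classes changed with thinning and with TMM factors across classes. The median of all genes stayed between -0.0088 and 0.0387. Low depth limits the 5 members under 200 UMIs and the mast-like and lymphatic-like classes most.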
